A study of Mus musculus with 38 samples.

Results

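Immunoglobulin genes are assembled from V, D and J segments that lie in long arrays, and the 3 mouse arrays are the subject of this report. All base-unpairing regions (BURs) of the in vitro reference map with a midpoint inside an immunoglobulin window were taken. BURs are stretches of DNA that lose base pairing easily, and they contain runs in which one strand lacks G or lacks C. The heavy chain window ran from 114.5 to 117.25 Mb on chromosome 12, the kappa light chain window from 67.5 to 70.68 Mb on chromosome 6 and the lambda light chain window from 19.02 to 19.27 Mb on chromosome 16, all in NCBIM37, the assembly of mm9. They held 273, 371 and 21 BURs. Together these were 665 of the 238380 BURs of the map.

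In developing B cells, one V, one J and at the heavy chain locus one D segment are joined, and the joined exon is spliced to a constant (C) gene. Each V segment ends in a recombination signal, a heptamer and a nonamer, that the recombinase recognises. The heavy and kappa arrays contract in B cell precursors so that distant V segments reach the joining end, and CTCF, a zinc-finger protein that anchors chromatin loops, binds many sites in the heavy chain V region. SATB1 is a nuclear protein of T cells, neurons and epidermal cells that binds BURs. The J to C introns of the heavy and kappa loci hold the intronic enhancers and their nuclear matrix attachment regions.

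The data were the map and 10 ChIP peak lists. For the map, recombinant SATB1 was bound to sonicated thymus DNA of C57BL/6 mice in vitro. The other 10 lists came from C57BL/6 mice labelled SATB1 wild-type, with no treatment named. Urea ChIP-seq gave SATB1 lists for thymus, skin and brain cortex, with 2 lists each, and 1 CTCF list each for thymus and skin. In that method a urea gradient strips crosslinked chromatin of proteins held to DNA only through others, before the antibody is added. Standard ChIP-seq, without the urea step, gave 2 SATB1 lists for thymus. The labels put thymus and skin at postnatal day 13 and the brain lists at 5 and 6 weeks, while the titles of standard replicate 1 and of the thymus CTCF list say 6 weeks, and the study's methods give other ages for skin and brain. Both replicates of each urea SATB1 group share a preparation code in their titles and differ in antibody volume for thymus (4 and 2 µl), in sonication time for skin (55 and 60 s) and in PCR cycles for brain (10 and 12), so the spread between them may be technical. The standard replicates differed in antibody (ab109122, then 1583D), in sonication (15 and 150 s) and in preparation code. They may also differ in age, since only the title of replicate 1 says 6 weeks. These cannot be told apart as sources of any difference between the standard replicates. None of the samples is of the B lineage, and the lists hold no expression values against which the tissue labels could be checked.

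The whole lists held from 10846 peaks in skin replicate 2 to 117963 peaks in brain replicate 1 for urea SATB1. The standard lists held 48175 and 27147 peaks, and the CTCF lists 20323 in thymus and 31509 in skin. Depth is unknown from the lists, which give no numbers of reads, and no counting interval can be stated. The study describes the aligned read totals of its urea libraries as similar. Every fold below is the fold enrichment at the summit over the local background of the same list, and it is not scaled between lists.

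The sequences that the results turn on were read from NCBIM37, 201 bases around each BUR summit, with the longest stretch lacking G or lacking C in capitals. The first 4 lie downstream of V segments of the Igkv4 family and are printed on the minus strand, which is the strand of those genes. They are a bound pair of copies of a recurring far element, the near BUR beside one of them, and the near BUR of Igkv4-50, which no urea SATB1 list held.
Igkv4-62, far BUR, chr6:69347590-69347790, minus strand: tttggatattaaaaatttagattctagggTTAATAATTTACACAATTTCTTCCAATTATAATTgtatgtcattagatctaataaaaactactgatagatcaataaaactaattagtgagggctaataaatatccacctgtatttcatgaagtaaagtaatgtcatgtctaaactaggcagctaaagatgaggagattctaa
Igkv4-63, far BUR, chr6:69325715-69325915, minus strand: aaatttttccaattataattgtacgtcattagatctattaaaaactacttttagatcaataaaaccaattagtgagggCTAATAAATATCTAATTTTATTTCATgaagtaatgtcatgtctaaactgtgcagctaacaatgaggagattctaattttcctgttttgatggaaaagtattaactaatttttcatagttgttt
Igkv4-62, near BUR, chr6:69348961-69349161, minus strand: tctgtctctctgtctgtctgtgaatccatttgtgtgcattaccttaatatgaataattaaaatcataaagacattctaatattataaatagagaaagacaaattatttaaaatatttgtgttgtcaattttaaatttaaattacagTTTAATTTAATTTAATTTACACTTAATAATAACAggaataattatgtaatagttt
Igkv4-50, near BUR, chr6:69649976-69650176, minus strand: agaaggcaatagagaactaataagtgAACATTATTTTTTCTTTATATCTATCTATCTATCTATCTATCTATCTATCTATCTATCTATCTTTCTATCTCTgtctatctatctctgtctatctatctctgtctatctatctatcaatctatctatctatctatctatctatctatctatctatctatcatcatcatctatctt

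The next 5 BURs are on the plus strand. They are the most strongly bound kappa and lambda BURs, a heavy chain BUR bound in all 6 urea SATB1 lists, the most strongly bound heavy chain BUR of those in 5 lists, and the heavy chain BUR with the highest in vitro fold, which no urea list held.
Kappa BUR nearest to Igkv4-57-1, chr6:69505361-69505561: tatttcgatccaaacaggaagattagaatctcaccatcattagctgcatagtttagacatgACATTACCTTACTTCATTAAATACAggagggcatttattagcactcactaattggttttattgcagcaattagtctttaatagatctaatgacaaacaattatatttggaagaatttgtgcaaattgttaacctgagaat
Lambda BUR nearest to Gm10088, chr16:19023324-19023524: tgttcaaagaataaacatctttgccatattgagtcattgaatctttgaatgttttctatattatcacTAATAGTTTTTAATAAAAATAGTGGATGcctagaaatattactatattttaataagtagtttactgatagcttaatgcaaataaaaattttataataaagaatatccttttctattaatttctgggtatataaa
Heavy chain BUR nearest to Ighv9-3, chr12:115370821-115371021: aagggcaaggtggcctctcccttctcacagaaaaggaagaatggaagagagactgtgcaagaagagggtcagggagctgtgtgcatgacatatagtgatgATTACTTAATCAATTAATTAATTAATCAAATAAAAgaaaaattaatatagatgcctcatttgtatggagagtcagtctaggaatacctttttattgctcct
Heavy chain BUR nearest to Ighv7-3, chr12:115390542-115390742: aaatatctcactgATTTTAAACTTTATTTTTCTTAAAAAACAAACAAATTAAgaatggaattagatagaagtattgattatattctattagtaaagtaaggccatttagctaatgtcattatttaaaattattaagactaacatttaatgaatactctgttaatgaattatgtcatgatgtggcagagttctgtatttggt
Heavy chain BUR nearest to Ighv2-3, chr12:114853634-114853834: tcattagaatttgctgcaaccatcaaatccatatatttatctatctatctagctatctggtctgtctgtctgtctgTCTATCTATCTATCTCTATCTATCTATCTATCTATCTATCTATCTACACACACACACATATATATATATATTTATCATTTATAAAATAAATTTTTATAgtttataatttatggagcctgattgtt

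BURs were spread along the V regions of all 3 loci and were nearly absent from the joining end of the heavy chain locus. The density was 99.3 BURs per Mb at the heavy chain locus, 117 at kappa and 84.0 at lambda, against 90.8 in the mapped genome. Among non-overlapping genome windows of the same length, 64.1% of 918 held fewer BURs per Mb than the heavy chain window, and 72.2% of 787 held fewer than the kappa window. For lambda it was 57.6% of 10103.

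The loci were richer in A and T than the genome, at 60.1%, 61.3% and 60.9% AT for heavy, kappa and lambda against 58.2%. Set against windows within 1 percentage point of the same AT content, the loci lay below the middle. The medians of those windows were 107, 136 and 116 BURs per Mb, and 33.7%, 22.2% and 19.9% of them held fewer BURs than the heavy, kappa and lambda windows. The density above the genome mean was thus not above that of windows of like base composition.

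**Figure D1:**
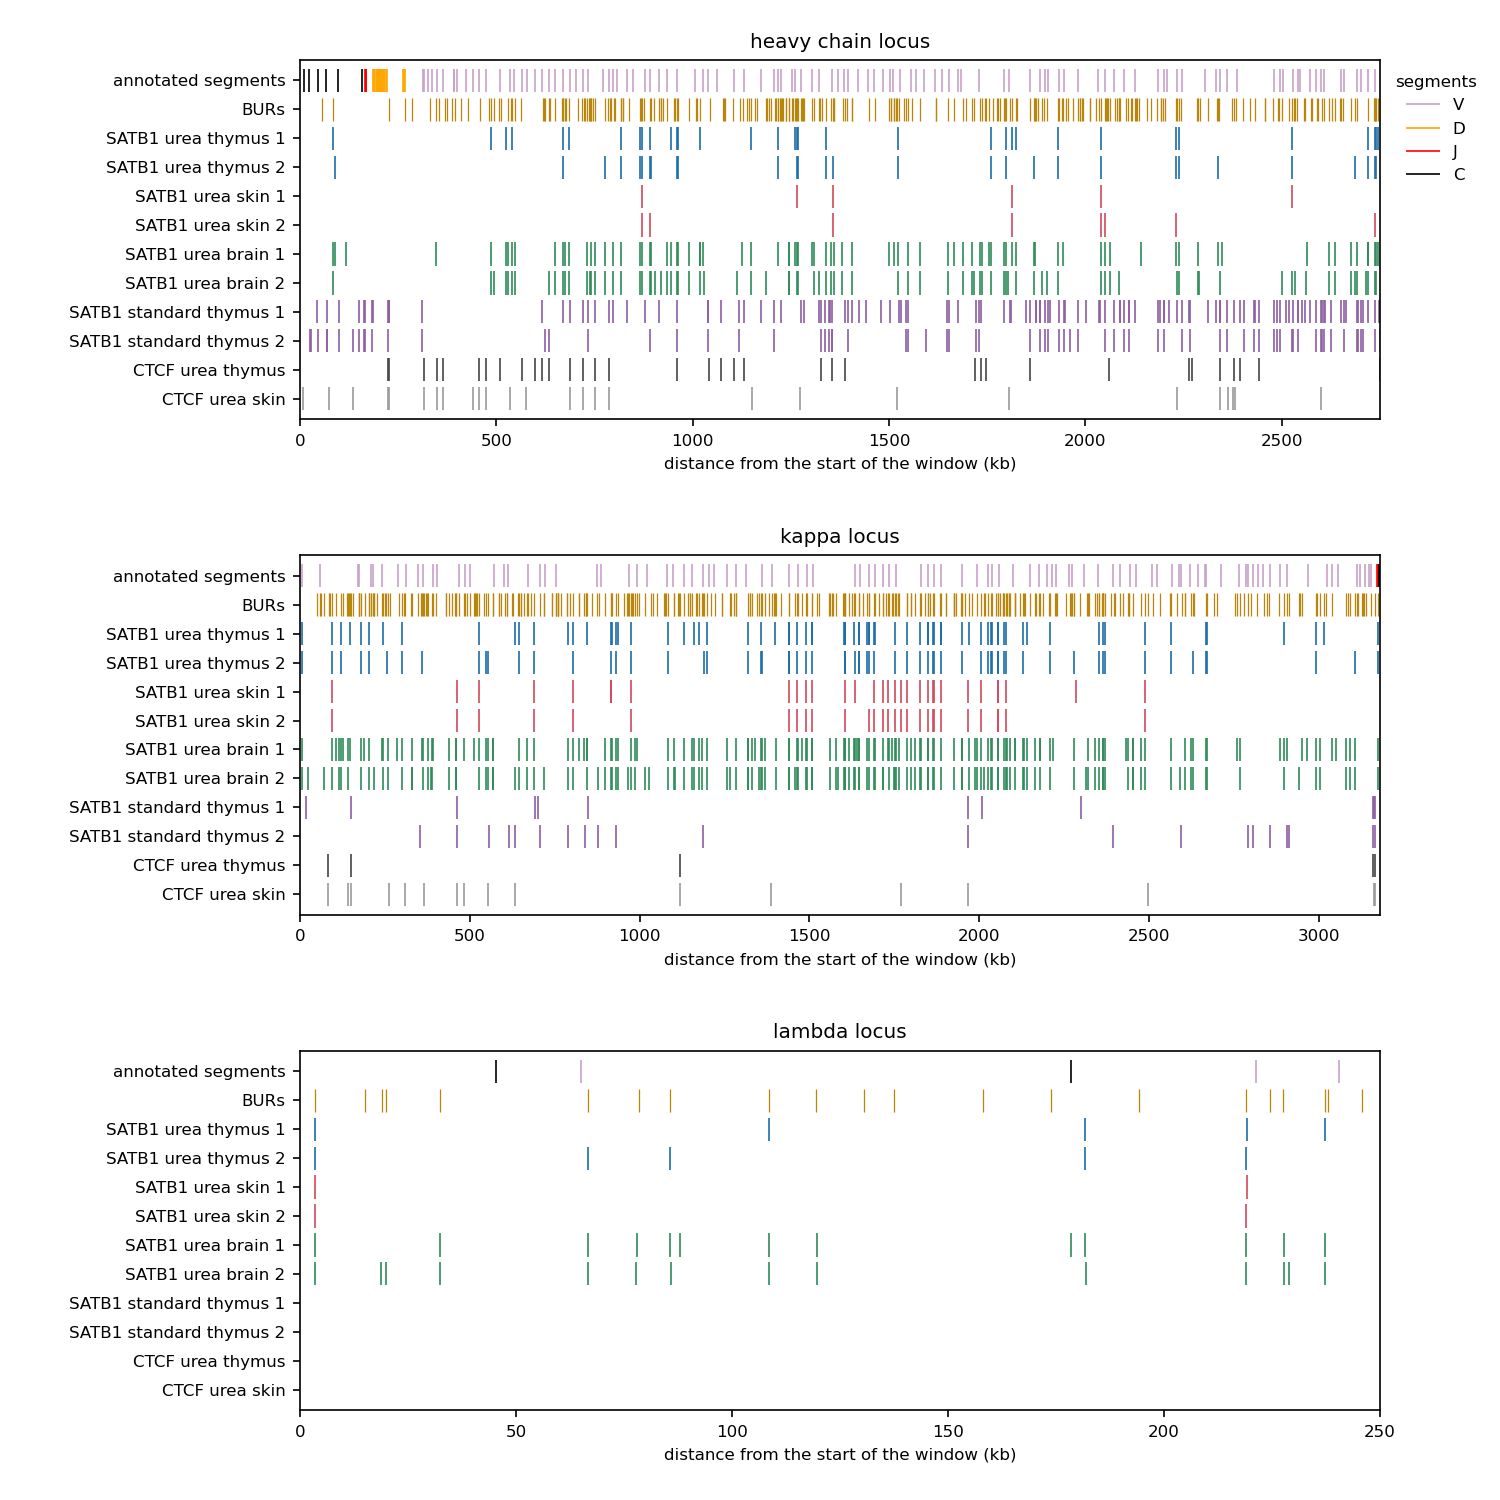
Positions of annotated immunoglobulin segments, BURs and peaks of the 10 ChIP lists along the heavy chain, kappa and lambda windows. The x axis is the distance in kb from the start of the window and each tick is the midpoint of a segment, BUR or peak. BURs are nearly absent over the constant, J and D segments at the left of the heavy chain window, where standard SATB1 and CTCF peaks are present.

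The widest stretch without a BUR of the map at the heavy chain locus measured 142981 bp, from 114583497 to 114726477. It held the J to C intron with the intronic enhancer, Ighm, which encodes the constant region of IgM, all 4 J segments and 18 of the 21 D segments, up to Ighd1-1. The BUR at its lower end, chr12:114583097-114583496, had peaks of 5.08 in thymus replicate 1 and of 15.7 and 9.50 in brain. The BUR at its upper end, chr12:114726478-114726821, had no urea SATB1 peak. The widest gaps were 52571 bp at kappa, in the part of the V region nearest the J segments, and 33841 bp at lambda.

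BURs seldom overlapped the coding segments. Of 144 annotated heavy chain segments 1 overlapped a BUR, the D segment Gm16968. None of 108 kappa segments and none of 5 lambda segments did. The median distance from a BUR to the nearest segment was 4486 bp at the heavy chain locus, 7418 bp at kappa and 13344 bp at lambda. Divided into 3 equal lengths from the D segments outward, the heavy chain V region held 80, 96 and 90 BURs, and from the J segments outward the kappa V region held 97, 137 and 135.

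Some BURs sit at the window edges. The heavy chain window took in chr12:114556879-114557382 and chr12:117244921-117245879 and left out chr12:114446431-114446910 and chr12:117250591-117251486. The kappa window took in chr6:67551114-67551840 and chr6:70675048-70675701, and the nearest BURs outside were chr6:67476929-67477304 and chr6:70705720-70706163. The lambda window began with chr16:19023122-19023745 and ended with chr16:19265608-19266048, between chr16:19010002-19010325 and chr16:19284618-19285008.

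SATB1 occupancy of these BURs was lower than the genome level at the heavy chain locus and higher at kappa. At the heavy chain locus, 29 and 25 of 273 BURs (9.89% ± 1.04, SD, n = 2) overlapped a thymus urea peak in replicates 1 and 2, where 14.3% and 12.6% of all BURs did. Skin peaks lay on 6 and 8 of them (2.56% ± 0.518, SD, n = 2), against 3.68% and 3.61% of all BURs. Brain peaks lay on 68 in each replicate (24.9%), against 36.2% and 33.4%. Each heavy chain share was below the share of all BURs in the same list, in 6 of 6 lists.

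At kappa, 65 and 60 of 371 BURs (16.8% ± 0.953, SD, n = 2) overlapped a thymus peak, 27 and 26 (7.14% ± 0.191) a skin peak and 139 and 133 (36.7% ± 1.14) a brain peak. Each kappa share was above that of all BURs in the same list. This held only with the stretches behind the Igkv4 segments, described below, included. At lambda 4 and 4 of 21 BURs overlapped a thymus peak, 2 and 2 a skin peak and 9 and 11 a brain peak. With 21 BURs, a difference of 1 BUR moves a lambda share by several percentage points.

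**Figure D2:**
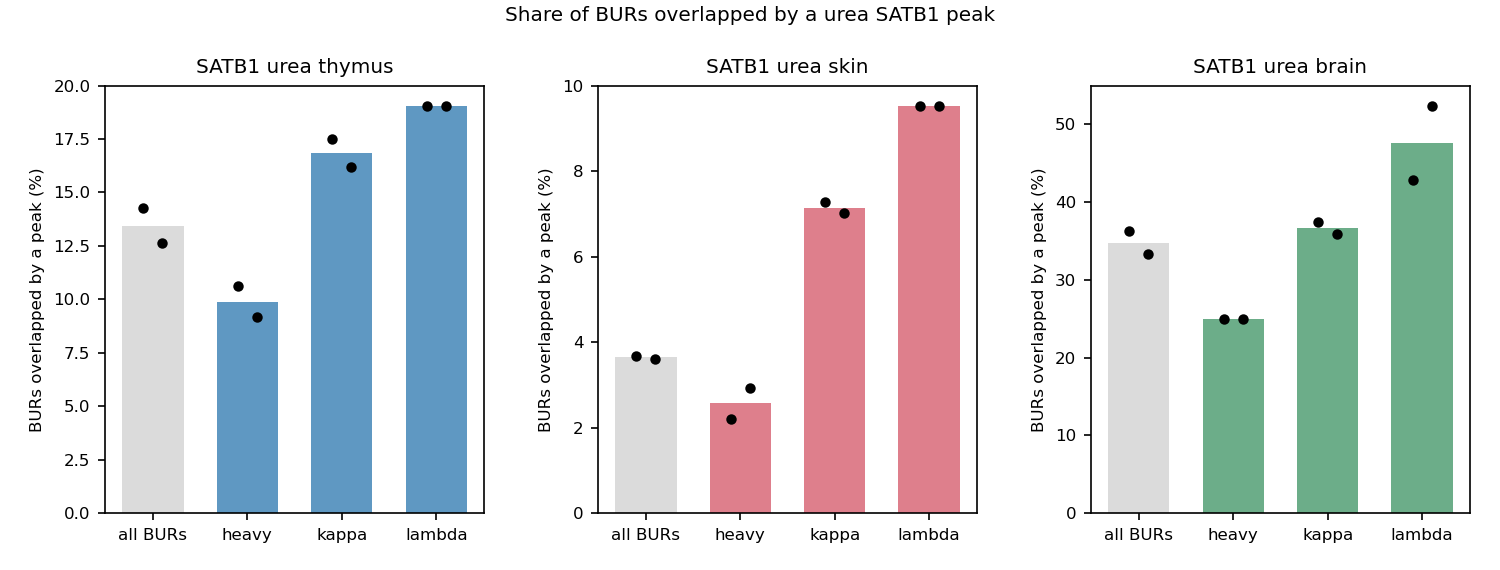
Percentage of BURs overlapped by a urea SATB1 peak by at least 1 bp, in thymus, skin and brain, for all BURs and for each locus. Bars are the mean of 2 lists, points are the single lists, and the y axes start at 0 and differ in height. Heavy chain bars are below the bar of all BURs and kappa bars above it in each panel.

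The order of the tissues followed the length of the lists. With every urea list cut to the 10846 peaks of smallest q-value, the shares of immunoglobulin BURs were 4.66% and 4.66% in thymus, 5.26% and 5.41% in skin and 4.36% and 4.36% in brain. The same cut left 4.22% and 4.21%, 3.58% and 3.61%, and 4.57% and 4.54% of all BURs. At equal list length the heavy chain share was 1.47% to 2.93% and the kappa share 5.66% to 7.28% in the 6 lists.

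The difference between loci was also present in the peaks themselves, whether or not they lay on a BUR. Kappa held 78 and 66 thymus peaks, 32 and 29 skin peaks and 168 and 160 brain peaks. The heavy chain locus held 34 and 29, 6 and 8, and 86 and 86. Per Mb, the kappa value was higher than the heavy chain value in 6 of 6 lists, from 1.61-fold in brain replicate 2 to 4.61-fold in skin replicate 1.

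Averaged over the 6 lists, the log2 ratio of kappa to heavy chain peaks per Mb was 1.21 ± 0.59 (SD), a 2.31-fold difference. Against the mapped genome kappa was higher by 0.62 ± 0.45 (log2, 1.54-fold) and the heavy chain locus was lower, at -0.59 ± 0.19 (log2, 0.665-fold). Each of these 3 comparisons had the same sign in 6 of 6 lists and p = 0.03125 in a two-sided exact permutation test of sign flips, which is the smallest p that 64 flips allow, and the Benjamini-Hochberg adjusted values were also 0.03125. All 6 lists were read at the same loci, so this p measures agreement between lists. It does not place the loci among other genome windows, and whether other windows differ as much was not tested. Lists of one tissue may share chromatin, and with the 3 tissue means as units the smallest p is 0.25. With lists cut to equal size the log2 ratios were larger, at 2.07 ± 0.28 for kappa to heavy chain, 0.91 ± 0.23 for kappa to genome and -1.16 ± 0.39 for heavy chain to genome (SD, 6 lists).

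A large share of the kappa peaks lay in short stretches behind a single V family. Igkv4 is the largest kappa V family, with 26 annotated segments on the minus strand between 68705032 and 69651281. Of these, 21 had a BUR whose summit was 631 to 764 bp downstream of the end of the segment (median 723 bp), here called the near BUR. A second, far BUR lay 1779 to 2814 bp downstream of 18 segments (median 2139 bp), and 15 of the 18 lay between 2096 and 2227 bp. Neither was present at 4 segments, Igkv4-92, Igkv4-91, Igkv4-90 and Igkv4-53.

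Pooled over the other families, fewer segments had a BUR at these distances, and the difference was not tested. Of the 76 kappa V segments of other families, 9 had a BUR summit 500 to 1000 bp downstream and 13 had one 1500 to 3000 bp downstream. Of 113 heavy chain V segments the numbers were 11 and 24. Single small families had as many or more. Ighv7 of the heavy chain had a BUR 500 to 1000 bp downstream at 4 of 4 segments, and at kappa Igkv9 had one 1500 to 3000 bp downstream at 3 of 4 and Igkv11 and Igkv19 at 1 of 1 each. Igkv4 was chosen after its values were seen, and neighbouring copies come from duplications, so they are not independent.

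**Figure D3:**
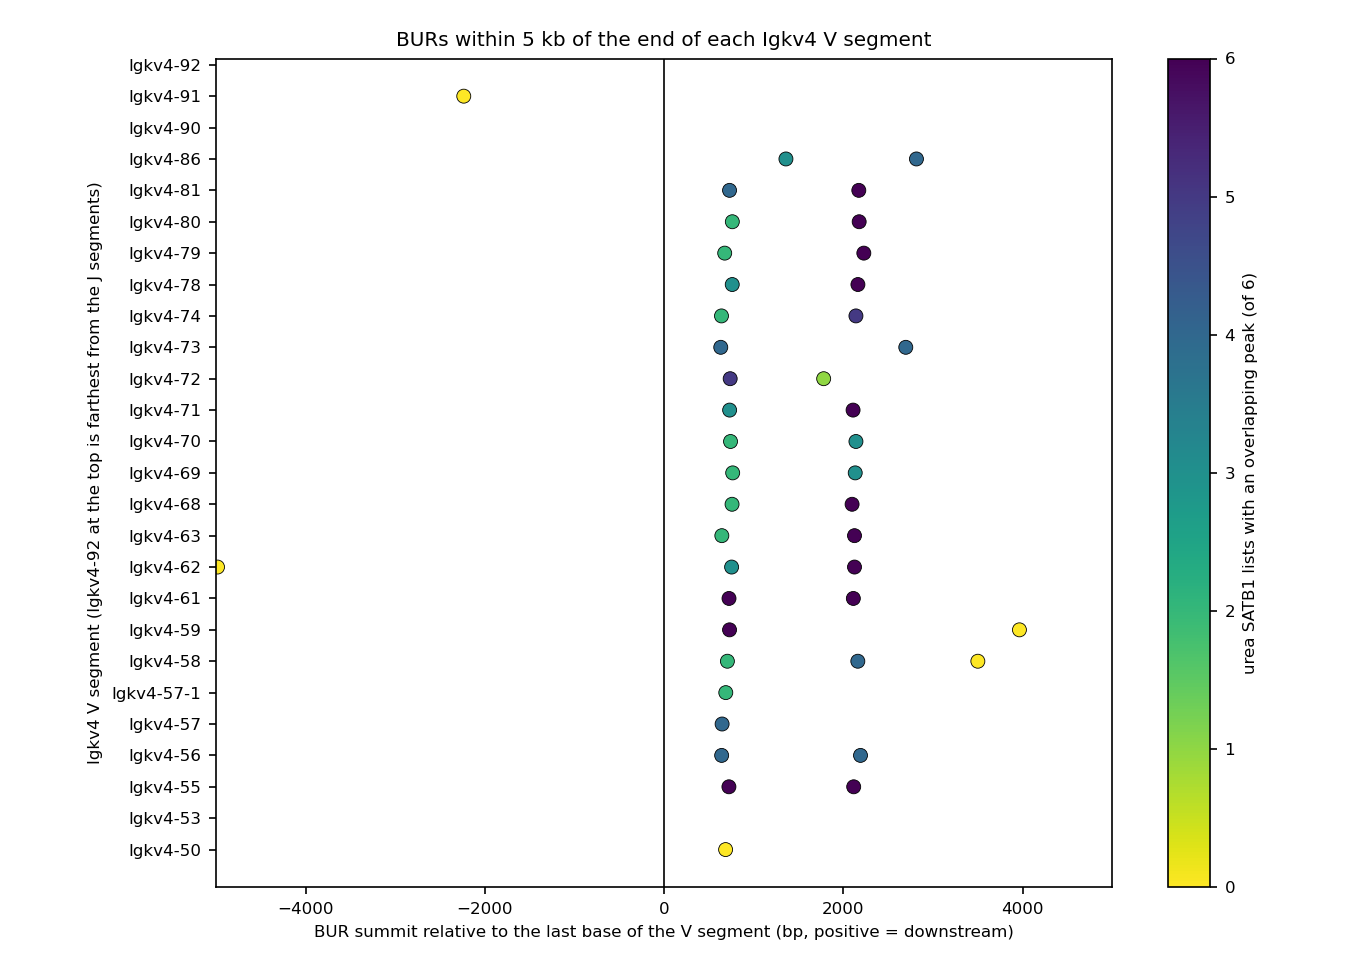
BUR summits within 5 kb of the last base of each Igkv4 V segment. The x axis is the distance in bp, positive downstream, each row is a segment in chromosome order, and the colour is the number of urea SATB1 lists (of 6) with a peak on the BUR. The near BURs form a column at a median of 723 bp and the far BURs a column at a median of 2139 bp, with most of the darkest points, those in all 6 lists, in the far column.

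The near and the far BURs differed in the tissues that held them. Near BURs were in both brain lists at 20 of 21 segments, in both thymus lists at 8 and in both skin lists at 3. Far BURs were in both brain lists at 15 of 18, in both thymus lists at 15 and in both skin lists at 12. All 6 lists held 10 of the far BURs and 3 of the near BURs. Among the 17 segments with both, the far BUR was in more lists at 12, in as many at 4 and in fewer at 1.

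In vitro the order was the other way round. The near BUR had the higher in vitro fold at 15 of those 17 segments. Near BURs had in vitro folds of 8.04 to 20.1 (median 9.89), and far BURs of 3.92 to 10.6 (median 7.08). The pair behind Igkv4-62 shows this. Its near BUR had an in vitro fold of 8.50 and peaks of 4.87 in thymus replicate 1 and of 6.89 and 8.23 in brain, with no skin peak. Its far BUR had an in vitro fold of 7.77 and peaks of 24.2 and 27.6 in thymus, 22.4 and 21.8 in skin and 19.3 and 16.3 in brain.

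Other segments showed the same split in different degrees. Behind Igkv4-63, the near BUR had brain peaks of 5.66 and 5.33 and no other, while the far BUR had peaks of 27.4 and 28.4 in thymus, 18.4 and 17.6 in skin and 21.1 and 20.6 in brain. Behind Igkv4-70 the far BUR had skin peaks of 10.7 and 8.60, 1 brain peak of 4.64 and no thymus peak. Igkv4-72 was the segment with the opposite order, with the near BUR in 5 lists and the far BUR in 1. Igkv4-50, at the end of the array nearest the J segments, had the near BUR of highest in vitro fold, 20.1, and no urea SATB1 peak on it.

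The far BURs were copies of one sequence. Over 201 bases around the summits, the 153 pairs of far BURs had a median identity of 91.0% (76.1% to 100%). Of the 210 pairs of near BURs, 145 aligned over at least 100 bases, with a median identity of 81.8%, and near with far BURs reached a median of 58.7%. The authors kept reads with a unique match only, and how this acts on copies of such likeness was not tested.

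The far sequence of Igkv4-62 was searched for in all 665 immunoglobulin BURs. At 75% identity or more over at least 100 bases it matched 23 BURs, all in the kappa window: the 18 far BURs and 5 others. Among the 5 was chr6:69505185-69505723, 10299 bp from Igkv4-57-1, with 85.7% identity over 182 bases. This BUR had the highest mean urea fold of the BURs in all 6 lists, with peaks of 30.2 and 31.1 in thymus, 16.0 and 17.1 in skin and 24.2 and 24.8 in brain and an in vitro fold of 17.9. Of the 23 matching BURs, 13 were in all 6 lists, and 1, chr6:69058459-69058742, was in none.

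Taken over the 3 kb downstream of each Igkv4 segment, 78 kb in all, these stretches held 40 BURs. Thymus peaks covered 67.5% and 60.0% of them, skin peaks 40.0% and 40.0%, and brain peaks 92.5% and 92.5%. Of the other 331 kappa BURs, 11.5% and 10.9% overlapped a thymus peak, 3.32% and 3.02% a skin peak and 30.8% and 29.0% a brain peak. Of all BURs, 14.3% and 12.6%, 3.68% and 3.61%, and 36.2% and 33.4% did, so the other kappa BURs were below the genome share in each list. Of the peaks in the kappa window, the stretches held 28 of 78 and 24 of 66 in thymus, 16 of 32 and 16 of 29 in skin, and 38 of 168 and 38 of 160 in brain.

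The values without these stretches are a description with no test, since the stretches were chosen after their BURs and peaks were seen, and removing them had to lower kappa while the genome kept its own dense stretches. The mean log2 ratio of kappa to the genome was then -0.044 ± 0.16 (SD), and the ratio of kappa to the heavy chain locus 0.54 ± 0.35. In peaks per Mb, both skin lists remained above the genome, at 5.16 against 4.30 and 4.19 against 4.15, and the thymus and brain lists were below it. The skin shares of BURs outside the stretches, given above, were below those of all BURs.

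Most immunoglobulin BURs bound in thymus were also bound in brain, and most bound in skin were also bound in both others. Counting BURs present in both lists of a tissue, thymus bound 73 immunoglobulin BURs (11.0%), skin 31 (4.66%) and brain 184 (27.7%), against 11.1%, 3.1% and 30.6% of all BURs. Of the 73 thymus BURs 70 (95.9%) were also bound in brain, against 97.4% in the whole map. Of the 31 skin BURs 27 (87.1%) were also bound in thymus and 26 (83.9%) in brain, against 92.5% and 91.3%. At the heavy chain locus 2 of the 4 skin BURs were bound in thymus and brain. Brain alone bound 114 (17.1%, against 19.8% of all BURs) and thymus and brain without skin 44 (6.62%, against 7.97%). Skin alone bound 4 (0.602%, against 0.197%) and thymus alone 2 (0.301%, against 0.219%).

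All 6 urea SATB1 lists held 26 immunoglobulin BURs (3.91%, against 2.79% of all BURs), of which 22 were at kappa, 2 at the heavy chain locus and 2 at lambda. Of the 22 at kappa, 13 matched the far Igkv4 sequence. No urea list held 416 of the 665 (62.6%, against 60.4% of all BURs). These were 189 of 273 heavy chain, 217 of 371 kappa and 10 of 21 lambda BURs.

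The heavy chain BURs bound most widely lay in the V region. The one at chr12:115370772-115371052, 7851 bp from Ighv9-3, had peaks of 11.7 and 12.7 in thymus, 4.82 and 6.55 in skin and 11.5 and 6.51 in brain, with an in vitro fold of 4.01. Both thymus values were above the others, and the brain and skin values overlapped. The other in all 6 lists, chr12:116538824-116539347 near Ighv8-8, had peaks of 5.33 and 5.20 in thymus, 7.55 and 7.37 in skin and 7.48 and 5.30 in brain, and the brain values overlapped those of both other tissues.

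Among the BURs in 5 lists, chr12:115390249-115391010, 385 bp from Ighv7-3, had the highest folds, with 15.8 and 13.6 in thymus and 16.5 and 17.7 in brain but a skin peak, of 5.32, only in replicate 2. The others in 5 lists by the naming rule, near Ighv10-3 (chr12:115765435-115766014) and Ighv1-63 (chr12:116731604-116732058), had thymus folds of 8.58 to 12.8, brain folds of 7.05 to 9.01 and a peak in 1 of the 2 skin lists.

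The share of BURs bound in both brain lists fell from the D-proximal to the distal part of the heavy chain V region, from 27.5% over 19.8% to 11.1%, and no test was made of these counts of 22 of 80, 19 of 96 and 10 of 90. In both thymus lists the shares were 8.75%, 6.25% and 5.56% (7, 6 and 5 BURs). In both skin lists they were 1.25%, 2.08% and 1.11% (1, 2 and 1 BURs), without a steady fall. Standard SATB1 peaks ran the other way from the brain shares, with 16, 41 and 61 in replicate 1 and 7, 18 and 34 in replicate 2. At kappa the middle part, where most Igkv4 segments lie, had the highest shares. It had 23.4% in both thymus lists, 13.9% in both skin lists and 46.7% in both brain lists, against 8.89%, 3.70% and 23.0% in the distal part and 7.22%, 1.03% and 26.8% in the J-proximal part. Of all BURs, 11.1%, 3.10% and 30.6% were in both lists of thymus, skin and brain, so all 3 heavy chain parts were below the genome share in brain.

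Other widely bound kappa BURs had no match to the far sequence at 75% identity. The BUR chr6:69286868-69287394 had peaks of 26.7 and 26.4 in thymus, 13.7 and 15.0 in skin and 22.4 and 25.2 in brain. The BUR chr6:68026058-68026580, 25608 bp from Igkv9-120 in the distal V region, had 23.1 and 23.8 in thymus, 12.8 and 10.2 in skin and 24.9 and 23.6 in brain. Skin was lowest in both. Both thymus values were above both brain values at the first, and the thymus and brain values overlapped at the second.

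At lambda, whose array is short, 2 BURs were bound in all 6 lists. The first BUR of the window, chr16:19023122-19023745, 4580 bp from Gm10088, had peaks of 21.0 and 18.5 in thymus, 6.08 and 8.80 in skin and 24.4 and 25.4 in brain and the highest in vitro fold of the locus, 20.9. The BUR chr16:19238526-19239357, 1947 bp from Iglv3, had 17.0 and 18.2 in thymus, 7.75 and 5.32 in skin and 22.8 and 20.6 in brain, with an in vitro fold of 12.7. Another BUR of high in vitro fold, chr16:19138982-19139779 (13.2), had brain peaks of 10.7 and 8.17 and no other. In the pair bound in all lists, brain was highest and skin lowest, without overlap between tissues, in folds that are not scaled between lists.

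The J to C introns of the heavy and kappa loci, which hold the intronic enhancers, differed in the BURs of the map and in their peaks. The kappa intron held 1 BUR, chr6:70675048-70675701, 728 bp from Igkc, with an in vitro fold of 13.8. It had peaks of 4.98 and 5.46 in thymus and of 15.6 and 16.5 in brain and no skin peak. The annotation holds no lambda J segment, so J to C introns of lambda were not defined. The sequence around the summit of the kappa BUR, on the plus strand, is shown. It is the only BUR of the map in the heavy and kappa J to C introns.
Kappa J to C intron BUR, chr6:70675284-70675484: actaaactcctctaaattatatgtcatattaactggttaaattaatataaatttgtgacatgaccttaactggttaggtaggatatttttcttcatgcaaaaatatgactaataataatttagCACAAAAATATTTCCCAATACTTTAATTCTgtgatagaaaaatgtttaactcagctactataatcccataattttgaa

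The heavy chain J to C intron held no BUR of the map and no urea SATB1 peak. The map is a single in vitro list, so a BUR that it missed would not be seen here. Standard SATB1 peaks were present there in both replicates, at chr12:114662461-114663714 with a fold of 6.28 in replicate 1 and 4.51 in replicate 2, and at chr12:114665653-114665853 with 3.65 and 4.98. The first overlapped an exon of AC073553.1 and lay 1520 bp from Ighm, and the second 872 bp from Ighj4. The kappa intron held no standard peak.

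Stronger binding in vitro went with binding in more lists, with exceptions. Median in vitro fold was 5.09 for the 416 immunoglobulin BURs in no urea list and 9.18 for the 26 in all 6. Cut at the quartiles of all BURs, 14.7%, 28.3%, 52.2% and 56.4% of immunoglobulin BURs from the lowest to the highest class of in vitro fold were in at least 1 list, where 25.9%, 37.3%, 48.5% and 50.2% of all BURs were. Across BURs, the Spearman rank correlation between in vitro fold and the number of lists was 0.39 for the 665 and 0.24 for all BURs on chromosomes 1 to 19, X and Y. The BURs share libraries, so no p is given.

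**Figure D4:**
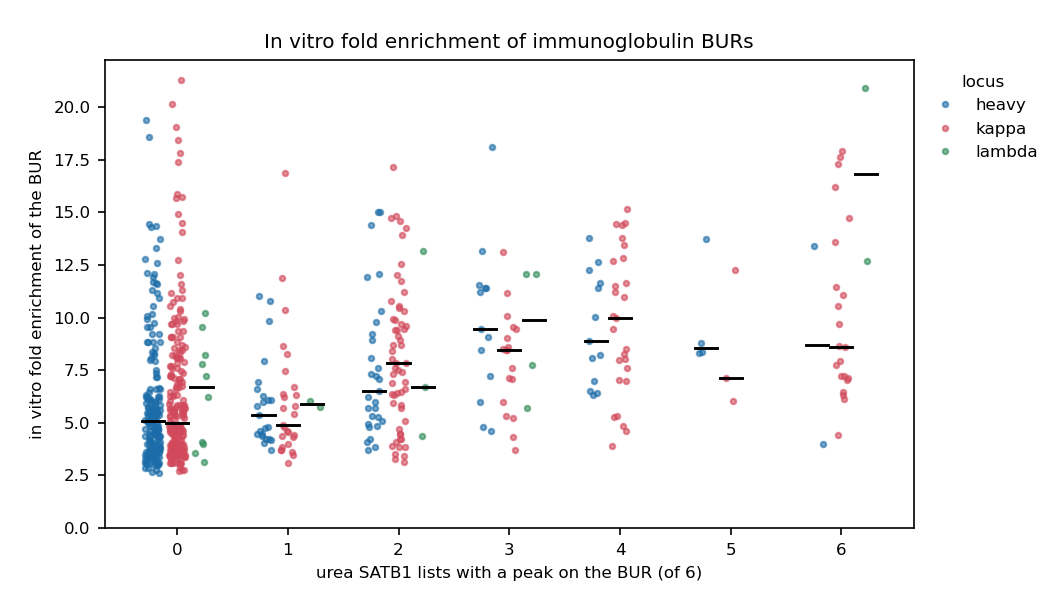
In vitro fold enrichment of each immunoglobulin BUR against the number of urea SATB1 lists (of 6) with a peak on it, by locus, with black bars at the medians. Each point is a BUR. The median over the 3 loci together rises from 5.09 in no list to 9.18 in all 6, and the column of BURs in no list reaches 21.3.

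Of the 20 immunoglobulin BURs with the highest in vitro fold (15.2 or more), 11 were in no urea list. Of these 11, 9 contained a tetranucleotide repeat, TCTA at least 5 times in a row on either strand and in any of its 4 frames, as in the printed BURs of Igkv4-50 and Ighv2-3. The repeat was searched after these sequences were seen. The strongest kappa BUR in vitro, chr6:70411498-70412040 with a fold of 21.3, had no urea peak and a standard peak of 6.10 in replicate 2 only. The next at kappa by the naming rule were the Igkv4-50 BUR and chr6:69996152-69996675 (19.1). At the heavy chain locus the first were the Ighv2-3 BUR (19.4), chr12:114927250-114928201 near Ighv2-5 (18.6), both without a urea peak, and chr12:115648018-115648571 (18.1), with 5.84 in thymus replicate 1 and 16.7 and 17.9 in brain.

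Repeat-bearing BURs were strong in vitro throughout the map and seldom held a urea peak. They were 20243 of 232310 BURs (8.71%), with a median in vitro fold of 10.8 against 5.60 for the others, and 8.36% of them were in at least 1 urea list, against 43.6% of the others. At the heavy chain locus 9 BURs carried the repeat, with a median in vitro fold of 12.0, and 0 of the 9 were in a urea list. At kappa 33 carried it and 11 of the 33 were in at least 1 list, among them 5 of the 6 near Igkv4 BURs that carried it. No lambda BUR and no far Igkv4 BUR carried it. Mapping of reads within such repeats was not tested.

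Most urea SATB1 peaks lay on a BUR, here as in the whole lists. The share on a BUR was 77.9% to 100% at the heavy chain locus and 82.7% to 90.9% at kappa over the 6 lists, against 72.8% to 79.4% of whole lists. Merged over the 6 lists, 25 of 108 heavy chain, 46 of 200 kappa and 5 of 16 lambda sites touched no BUR, and none of these 76 was in all 6 lists. In 4 lists, both thymus and both brain, were 8 of them, among them chr12:117218180-117218666, 247 bp from Ighv1-84, with 9.91 and 6.24 in thymus and 5.94 and 6.85 in brain, and chr6:67504713-67505253, 377 bp from Igkv2-137, with 9.65 and 6.76 and with 5.75 and 5.74.

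Few standard SATB1 and no CTCF peaks lay on immunoglobulin BURs, as few did on BURs of the whole map. Standard peaks lay on 8 and 1 of the 665 BURs (0.677% ± 0.744, SD, n = 2), against 0.686% and 0.565% of all BURs, and on 0 in both replicates, against 0.289%. All 8 of replicate 1 were at the heavy chain locus (2.93% of its 273 BURs), where replicate 2 had 0. CTCF peaks lay on 0 of the 665 in thymus and in skin, against 0.244% and 0.564%. The heavy chain locus held 132 and 73 standard peaks, kappa 12 and 21, and lambda none. CTCF had 36 thymus and 27 skin peaks at the heavy chain locus, 5 and 17 at kappa and none at lambda. Of 108 merged heavy chain urea SATB1 sites, 0 were shared with standard SATB1 or CTCF, and at kappa 2 and 3 of 200 were. Standard SATB1 and CTCF shared 24 heavy chain sites, of 146 standard and 51 CTCF sites. The same shares over the whole lists were not computed here. The study reports that thymocyte urea SATB1 peaks rarely meet standard SATB1 or CTCF peaks genome-wide, whereas part of the standard SATB1 peaks meet CTCF. The rarity of urea SATB1 sites shared with the other kinds of list is thus not particular to these loci. How the 24 of 146 standard sites shared with CTCF compare with the whole lists was not tested.

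Part of the heavy chain standard peaks lay at the ends of V segments. In replicate 1, 57 of 132 summits lay within 1 kb of the last base of a V segment and 51 within 100 bp, with a median of -7 bp, just inside the segment. In replicate 2, 36 of 73 lay within 1 kb and 20 within 100 bp, and a further group lay inside the segments, with a lower quartile of the 36 at -290 bp and the lowest at -313 bp. For thymus CTCF 17 of 36 lay within 1 kb and 13 within 100 bp, with a median of 61 bp downstream. BUR summits and urea SATB1 summits lay within 100 bp of a V end in 0 cases in each of the 7 lists.

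**Figure D5:**
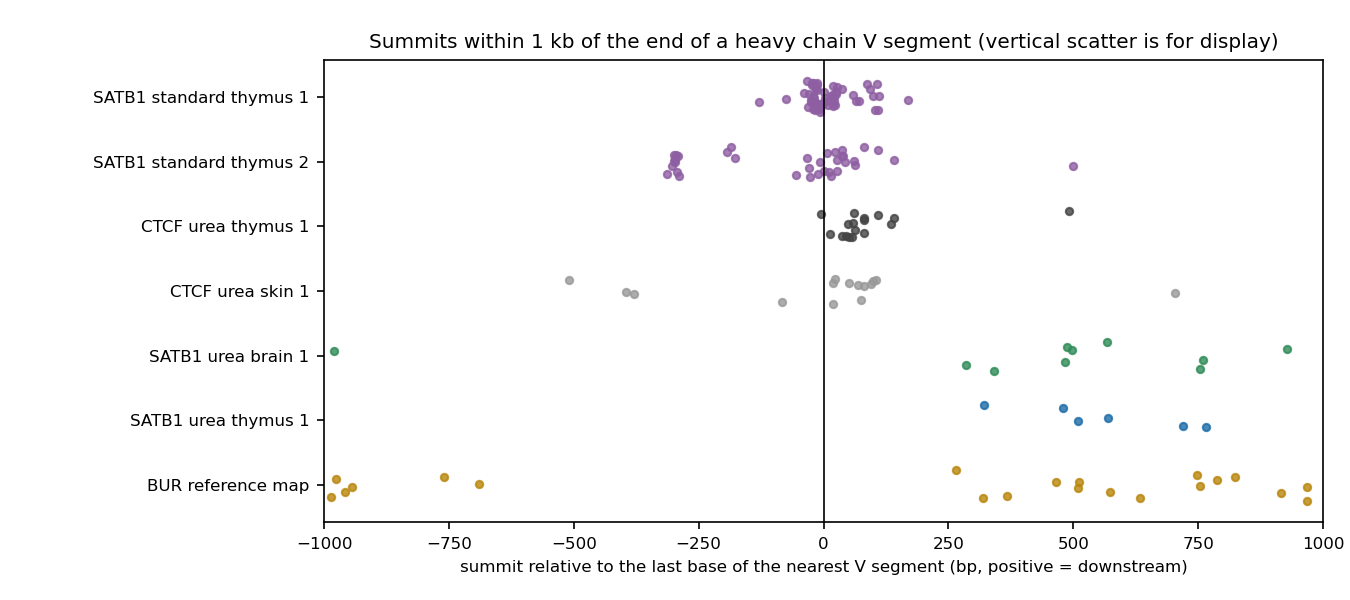
Summits within 1 kb of the last base of a heavy chain V segment, for standard SATB1, CTCF, urea SATB1 replicate 1 of brain and thymus, and BURs. The x axis is the distance in bp, positive downstream, and each point is a summit, with vertical scatter for display only. Standard SATB1 replicate 1 summits crowd at a median of -7 bp and thymus CTCF summits at 61 bp, whereas urea SATB1 and BUR summits leave the 100 bp on either side of the end empty.

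Of the 113 heavy chain V segments, 55 overlapped a standard peak in replicate 1, 34 in replicate 2 and 32 in both. The large distal family Ighv1 had 41, 28 and 28 of its 57. CTCF peaks lay on 14 V segments in thymus and 13 in skin, 7 of them in both. Of all V segments, 9 had both a standard SATB1 and a CTCF peak, 3 of them in Ighv1, 2 in Ighv7, both of Ighv11 and 1 each in Ighv4 and Ighv6. Ighv2 and Ighv5 had CTCF peaks and no standard peak. Ighv2 had 4 and 3 of its 10 segments and Ighv5 had 5 and 4 of its 10, while Ighv1 had 0 and 3 of 57. No V segment overlapped a urea SATB1 peak, and no D or J segment overlapped a peak of any of the 10 lists.

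The V ends shown had the highest standard replicate 1 folds among those with a peak in both replicates and an exact heptamer CACAGTG. Each is printed on the minus strand as the last 30 bases of the V segment and 40 beyond, with the heptamer in capitals.
Ighv14-2, chr12:115232640-115232709, minus strand: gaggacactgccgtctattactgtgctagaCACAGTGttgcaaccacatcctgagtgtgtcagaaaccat
Ighv1-54, chr12:116431846-116431915, minus strand: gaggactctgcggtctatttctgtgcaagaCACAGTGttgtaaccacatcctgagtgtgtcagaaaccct
Ighv1-85, chr12:117238199-117238268, minus strand: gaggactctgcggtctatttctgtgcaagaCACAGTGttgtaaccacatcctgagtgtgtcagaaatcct

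Their standard folds were 21.1 in replicate 1 and 6.93 in replicate 2 for Ighv14-2, 19.7 and 8.60 for Ighv1-54 and 19.4 and 9.90 for Ighv1-85. Replicate 1 was higher in all 3, but they were picked by their replicate 1 fold, so this says nothing about the replicates as a whole. The heptamer stood directly after the annotated end at 71 of 113 heavy chain V segments, at 44 of the 55 with a standard replicate 1 peak and at 27 of the 58 without. It also stood at 76 of 102 kappa V segments. Of those 102, 0 overlapped a standard peak in replicate 1 and 9 in replicate 2. An annotated end that is off by a base would hide the heptamer. The family Ighv1 alone held 41 of the 55 segments with a replicate 1 peak and 44 of the 71 with the heptamer. Copies within a family are not independent, and a link between peak and heptamer was not tested.

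Standard replicate 2 had more peaks of very high fold than replicate 1 at kappa and at the heavy chain locus. At or above a fold of 20 were 15 of its 73 heavy chain peaks and 10 of its 21 kappa peaks, against 2.00% of the 27147 peaks of the whole list. Of these, 12 of 15 and 8 of 10 overlapped an exon, and 8 and 1 were also in replicate 1. In the whole list, 57 of 543 such peaks overlapped an exon. The highest lay on Igkv12-38 (52.9), 1067 bp from Ighv2-1 (52.1), on Ighg, an annotated IgG constant gene (51.6), on Ighv7-1 (51.4) and on Igkv8-18 (50.7). Replicate 1 had 4 such peaks at the heavy chain locus and 1 at kappa. The cause was not tested, and the replicates differed in antibody, sonication, preparation code and the age given in the titles.

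Of the standard peaks in both replicates, those of highest mean fold at the heavy chain locus showed the same asymmetry. They had folds of 10.9 and 48.9 at chr12:116610396-116610703 near Ighv1-61, 6.21 and 52.1 at chr12:114811084-114811377 near Ighv2-1 and 5.92 and 51.6 at chr12:114544474-114544631 on Ighg. Replicate 2 was higher by several times in each, but a ranking by mean fold favours the very high folds of replicate 2. Many other shared heavy chain peaks were higher in replicate 1, such as 20.3 against 9.65 nearest to Ighv1-78 and 19.6 against 7.61 nearest to Ighv1-71. At kappa the standard replicates shared 4 peaks, 2 of them in the interval between V and J.

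CTCF peaks lay among the D segments and between V and J of kappa. Near Ighd1-1 the CTCF peak chr12:114723396-114723589 had 6.08 in thymus and 2.90 in skin and overlapped standard peaks of 7.35 and 7.45. The peak chr12:114725983-114726253, 1503 bp from Adam6b, had 10.7 in thymus and 6.33 in skin, with a standard peak of 8.71 in replicate 1. It lay within 1 kb of the upper end of the widest gap between BURs. In the kappa interval between V and J, chr6:70659295-70659600 had a thymus CTCF peak of 6.31 on standard peaks of 7.37 and 9.55, chr6:70663121-70663446 a skin CTCF peak of 6.60 on a standard peak of 9.12, and chr6:70664198-70664560 CTCF peaks of 9.72 and 5.70 on standard peaks of 8.71 and 5.76.

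The other CTCF peaks in both tissues lay in the V regions. At the heavy chain locus the highest besides the one near Adam6b were on Ighv5-2 (9.31 in thymus and 5.76 in skin) and on Ighv2-3 (9.95 and 4.82). At kappa they were chr6:67581705-67581882 (6.10 and 4.95), chr6:67649043-67649244 (6.42 and 7.35) and chr6:68618426-68618696 (6.74 and 10.0). Thymus was higher in both heavy chain cases and skin in 2 of the 3 kappa cases. The median fold of the whole CTCF list was 7.83 in thymus and 5.68 in skin, and folds are not scaled between lists. Between the heavy chain constant genes and the end of the window at 114.5 Mb there was a single CTCF peak, in skin, at chr12:114506645-114506859 with a fold of 3.88, 2625 bp from Ighe, and no thymus peak.

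A core of the CTCF motif, CCA, AG and GGC each separated by 2 bases of any kind, was searched on both strands within 100 bp of each summit. It was present at 23 of 36 thymus and 9 of 27 skin CTCF peaks of the heavy chain locus, against 44.0% and 32.7% of all CTCF peaks of those lists. All 23 and all 9 had it on the minus strand only, the strand of 111 of the 113 V segments, whereas the whole thymus list had it on the plus strand only at 4304 peaks and on the minus strand only at 4514. Of the heavy chain standard SATB1 peaks, 19 and 7 had it, also on the minus strand only, and 0 of the heavy chain urea SATB1 peaks did. At kappa it was found at 0 of 5 and 0 of 17 CTCF peaks. For the CTCF peaks on Ighv5-2 and Ighv2-3, 60 bases around the motif are shown on the minus strand with the motif in capitals. Both printed stretches lie wholly downstream of the last base of the V segment, so the motif is outside the segment.
CTCF site on Ighv5-2, chr12:114816621-114816680, minus strand: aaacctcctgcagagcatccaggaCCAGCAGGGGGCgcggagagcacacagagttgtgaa
CTCF site on Ighv2-3, chr12:114849299-114849358, minus strand: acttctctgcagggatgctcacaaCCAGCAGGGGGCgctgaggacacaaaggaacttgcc

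A few kappa sites off the BURs were in lists of several kinds. The site chr6:69466297-69466635, on an exon of AC156953.1, had standard SATB1 peaks of 27.8 and 35.9, skin urea SATB1 peaks of 11.5 and 4.71 and a skin CTCF peak of 14.9. The site chr6:67961823-67962092 had 13.6 and 19.7, 8.38 and 11.3, and 13.1 in the same lists. The skin CTCF peak of highest fold in the 3 windows, 34.7 at chr6:69268798-69269199, coincided with skin urea SATB1 peaks of 22.7 and 21.5. None of the 3 had a urea SATB1 peak in thymus or brain.

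For comparison, the T-cell receptor loci, joined by the same recombinase, held 170 BURs at 62.4 per Mb for alpha/delta, 67.5 for beta and 74.6 for gamma. Urea SATB1 peaks lay on 7.94% ± 0.416 of them in thymus, 3.82% ± 0.416 in skin and 24.7% ± 2.50 in brain (SD, n = 2 each), and the difference from the immunoglobulin loci was not tested. For all BURs the means were 13.4%, 3.64% and 34.8%. By locus they were 5.80%, 1.79% and 14.7% at alpha/delta (112 BURs). They were 11.1%, 3.33% and 47.8% at beta (45 BURs) and 15.4%, 23.1% and 30.8% at gamma (13 BURs). Alpha/delta was thus below the heavy chain locus in each tissue, and kappa was below beta in brain and below gamma in skin. Low shares were not particular to the heavy chain locus, nor raised ones to kappa.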

How the data were processed

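The authors aligned reads to NCBI37/mm9 with bowtie2 2.3.1 (3 mismatches in the seed, unique matches only) and called peaks in each library separately (MACS2 2.2.7, q-value threshold 0.01), versions as in the submitters' processing notes. Each deposited list gives a summit fold enrichment, which is the ratio to the local background computed by the authors' peak caller. The lists deposited by the authors also give -log10 p-values and -log10 q-values, and a display score that was not used. Depth is unknown from the lists, and a list is not scaled to another.

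BURs were taken by midpoint. A BUR was counted as bound on an overlap of at least 1 bp with a peak. Sequence and genes came from NCBIM37 and its annotation, and RefSeq was used for names only (253 of 257 segments matched). Urea thymus replicates were numbered as in the labels (1 with 4 µl of antibody). The genome density is over 2559 Mb of known bases on chromosomes 1 to 19, X and Y, and genome windows needed 90% known bases. Shares are means ± SD over 2 libraries. Peaks per Mb were compared by exact sign-flip permutation of the log2 ratio within each of 6 libraries, adjusted over 3 comparisons and tested on simulated data. Alternatives were overlap rules, a -log10 q of at least 5, lists cut to equal size, other window bounds, libraries left out and tissue means.

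The sites named are the J to C intron BURs, the 3 BURs of highest in vitro fold and the 5 BURs (2 at lambda) in most urea lists per locus, shared standard and CTCF peaks (all if 5 or fewer, else the 3 highest), CTCF peaks at the locus borders, and BURs at the window edges. Others, among them the Igkv4 BURs, the repeat, the sites in several kinds of list and the high folds of standard replicate 2, were chosen after their values were seen. The members and lists were chosen with earlier results of these data known. Computation used Python 3.11.15, numpy 2.4.6, pandas 2.3.3 and matplotlib 3.10.9. The inputs, the Satb1-/- samples, Hi-C, 4C-seq and the second thymus CTCF sample were not analysed here.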

Additional observations from a re-analysis of the deposited data

How the results depend on the processing

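Of the shares of immunoglobulin BURs bound, those in thymus were 11.9% with an overlap of 50% of the BUR and 4.66% with urea lists of equal size. In skin an overlap of 50% gave 4.66%. In brain the shares were 29.5% with an overlap of 50%, 31.5% with the peak summit inside the BUR and 4.36% with lists of equal size. Leaving out either replicate gave 13.4% to 14.7% in thymus, 5.26% to 5.41% in skin and 31.9% to 32.5% in brain, and 0.150% to 1.20% for standard SATB1. The log2 ratios ranged from 1.01 to 1.32 (kappa to heavy), 0.50 to 0.71 (kappa to genome) and -0.62 to -0.51 (heavy to genome) without each library in turn, with the same sign in each case. 5 libraries cannot give p under 0.0625, nor 3 tissue means, with ratios of 1.21, 0.62 and -0.59, under 0.25, so neither p bears on stability. Without the 3 kb downstream of the Igkv4 segments, added after seeing the data, the ratio of kappa to genome was -0.044, a description of a choice that had to lower it. With urea lists of equal size the 3 ratios grew to 2.07, 0.91 and -1.16 on the log2 scale, with p = 0.03125 each in the exact permutation test. Under the other planned settings that kept all 6 libraries, the 3 ratios and the densities kept their direction and call. No paired analysis was possible because replicate numbers are not shared samples between tissues, and the test already pairs loci within each library. The lists hold no read counts, so what depth limits was not tested.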
